A study of Homo sapiens with 5 samples.

Results

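The 10 autophagy genes described here are ULK1, BECN1, WIPI1, ATG5, ATG12, ATG16L1, MAP1LC3B, GABARAPL1, SQSTM1 and NBR1. They were followed in RNA of C4-2B cells, a prostate cancer line that derives from LNCaP and metastasizes to bone, on 5 Affymetrix whole-genome arrays with 1 array for each condition. The control cells had received the solvent, 0.1% DMSO. The treated cells had received 25 µM BR-DIM (spelled B-DIM in the labels, a formulated 3,3′-diindolylmethane from the indoles of cruciferous vegetables) for 6 h or 48 h, or the soy isoflavone mixture G2535 for 6 h or 72 h, with the 25 µM of G2535 referring to its genistein. How long the control was cultured is not stated in the labels or methods, so no treated array has a control known to be of its own age. The study asked whether both agents hold back the maturation of osteoclasts and osteoblasts, and through which signaling, and the arrays served to look at the cancer cells.

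Members were found as the probe sets that the gene table of the array maps to 1 member gene alone. This gave 27 probe sets among 54613 on the array, and the 10 genes stand among 19775 genes with such a probe set. Of the 27 probe sets, 19 lay above a floor of 97.1 on all 5 arrays, 6 did so on some of the arrays and 2 on none. The floor is the median of all signals of the 5 arrays, signals are linear intensities, and a signal under the floor was raised to it before a ratio was taken. A log2 ratio is a bound where either signal had to be raised. Where no other is named, the brightest probe set of a gene over the 5 arrays stands for it, and a gene counts as higher or lower from a 2-fold difference on, which is 1 on the log2 scale. There were no replicates, so no difference was tested against a spread, no p-value is given, and each ratio to the control rests on the same control array.

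Autophagy is the route by which cells enclose portions of their cytoplasm in a double membrane and deliver them to lysosomes. The ULK1 kinase starts the process, a lipid kinase complex with Beclin 1 (BECN1) marks the membrane with phosphatidylinositol 3-phosphate, and WIPI proteins read that mark. A conjugation system of ATG12, ATG5 and ATG16L1 then attaches proteins of the ATG8 family, among them those of MAP1LC3B and GABARAPL1, to the growing membrane, and receptors such as p62 (SQSTM1) and NBR1 bring in the cargo. Genes of the pathway are transcribed more under starvation and several kinds of stress, and an mRNA level does not measure how much material passes through the route.

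The WIPI1 signal was above the control on all 4 treated arrays, past 2-fold by the brightest probe set on the late arrays of both agents, and SQSTM1, by its brightest probe set, rose on the isoflavone 72 h array alone among the 4. After BR-DIM for 48 h, WIPI1 rose to 2.96 times the control signal, and ULK1 fell below the floor. GABARAPL1 was also above the control on all 4, within 2-fold by its brightest probe set and past it on BR-DIM 48 h by its second. By their brightest probe sets, no other member passed 2-fold, with the limit that ATG16L1 was under the floor on isoflavone 72 h and its ratio there is only a bound.

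Before the single genes, the arrays themselves must be described. Of 8 listed genes of prostate luminal cells, 6 had a probe set and the others were not analysed here. Of these 6 genes, 5 lay above the floor in the control, with a KLK3 (PSA) signal of 5095.8. The arrays labelled BR-DIM 48 h and isoflavone 6 h stood apart from the rest. Whether their labels hold for the RNA on them was not tested, and every ratio below is that of an array by its label. The summed luminal signal there was 0.129 and 0.133 of the control, with 5 of 6 genes at least 2-fold lower on each. KLK3 was at 14.6 on the BR-DIM 48 h array, under the floor, and at 269.5 on the isoflavone 6 h array. The luminal sums of the other treated arrays were 0.921 (BR-DIM 6 h) and 0.878 (isoflavone 72 h) of the control. On isoflavone 72 h 2 of 6 luminal genes were nevertheless at least 2-fold lower, KLK3 (log2 ratio -1.72) and KLK2 (-2.51), and 1 was higher, STEAP2, whose signal of 5315.8 makes up most of the sum. The 7 epithelial genes behaved alike, with sums of 0.199 and 0.101 of the control on the 2 arrays and 6 and 7 of 7 genes at least 2-fold lower, against sums of 0.978 (BR-DIM 6 h) and 1.43 (isoflavone 72 h). All 8 mesenchymal genes were above the floor in the control, VIM at 22023.9 among them, and their sums, in which VIM is the largest signal, were between 1.16 and 1.75 times the control on the treated arrays. Of the 8 genes, 1 was higher on each BR-DIM array, 1 was lower on isoflavone 6 h (FN1, log2 ratio -1.38) and 0 passed 2-fold on isoflavone 72 h, where 7 were above the floor. Of 9 housekeeping genes, 0 passed 2-fold in any comparison with the control, and their log2 ratios lay between -0.76 and 0.54. Less RNA per cell and fewer cells of a kind cannot be told apart in such samples. What this difference between arrays contributes to the member values was not tested. WIPI1 is also read below from the arrays that did not stand apart. For most other results no such reading is given, so values on BR-DIM 48 h and isoflavone 6 h keep this limit.

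**Figure D1:**
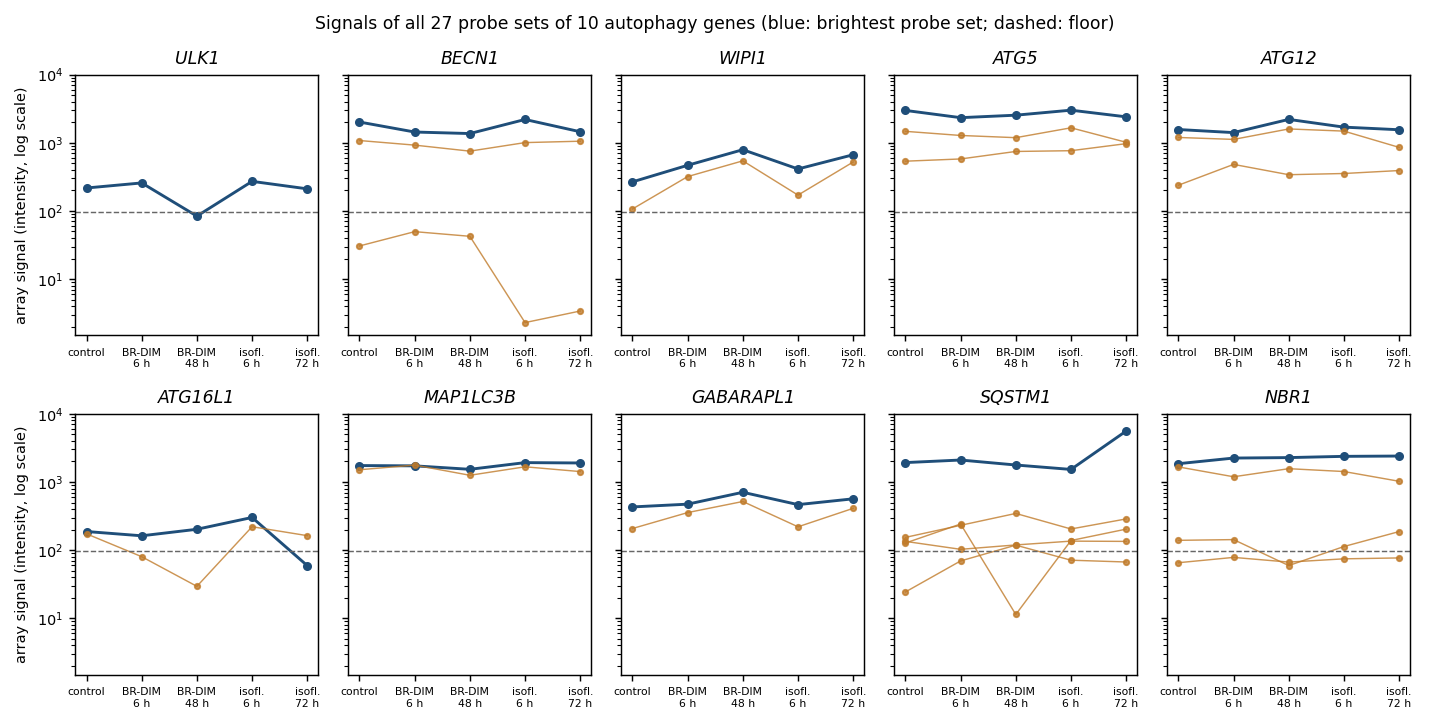
Array signal (intensity, log scale) of the 27 probe sets of the 10 genes on the 5 arrays, with the brightest probe set of each gene in blue, the others in brown, the floor of 97.1 as a dashed line, and lines that only join the points of a probe set. WIPI1 and GABARAPL1 have both probe sets highest on BR-DIM 48 h and above the control on every treated array, and SQSTM1 has 1 high point at isoflavone 72 h, 5591.5.

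ULK1, the kinase that starts autophagosome formation, had 1 probe set. Its signals were 216.7 in the control, 257.1 at 6 h and 83.8 at 48 h of BR-DIM, and 271.1 at 6 h and 210.5 at 72 h of isoflavone. The BR-DIM 48 h array was the low one, and the others lay within a narrow band. With that signal raised to the floor, the BR-DIM 48 h ratio to the control was at most 0.448 (log2 ratio -1.16, a bound). The log2 ratios of the other arrays were 0.25, 0.32 and -0.04. The fall was thus seen only on an array that was also low in luminal and epithelial genes, and isoflavone 6 h, the other such array, had the highest ULK1 signal of the 5. With the floor added to all signals in place of raising low ones, the log2 ratio was -0.79 and the call was lost.

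BECN1, which encodes the Beclin 1 subunit of the lipid kinase complex, had 3 probe sets. The brightest gave 2010.9 in the control, 1434.5 at 6 h and 1362.6 at 48 h of BR-DIM, and 2192.0 at 6 h and 1447.6 at 72 h of isoflavone. Control and isoflavone 6 h were high and the other arrays low, with log2 ratios of -0.49, -0.56, 0.12 and -0.47 in the order of the treated arrays, none past 2-fold. The second probe set gave smaller ratios (-0.22, -0.52, -0.10 and -0.03), and the remaining one was under the floor on every array.

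WIPI1 encodes a protein that binds phosphatidylinositol 3-phosphate at the forming membrane. Its brightest probe set, 203827_at, gave 266.4 in the control, 466.5 at 6 h and 789.8 at 48 h of BR-DIM, and 412.1 at 6 h and 666.4 at 72 h of isoflavone. The second, 213836_s_at, gave 106.7, 318.6, 542.1, 170.4 and 521.4 in the same order. On both, the control was the lowest array, the later time of each agent was above its earlier time, and BR-DIM 48 h was the highest. The log2 ratios of 203827_at to the control were 0.81, 1.57, 0.63 and 1.32, and those of 213836_s_at were 1.58, 2.35, 0.68 and 2.29. The rise past 2-fold at 48 h and 72 h was therefore present by both probe sets, and that at BR-DIM 6 h by 213836_s_at alone.

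Among all measured genes, the WIPI1 ratio of the brightest probe set lay above 94.2% at 6 h and 99.0% at 48 h of BR-DIM, and above 94.0% at 6 h and 98.0% at 72 h of isoflavone. The later array exceeded the earlier one by a log2 difference of 0.76 for BR-DIM and 0.69 for isoflavone by 203827_at, and by 0.77 and 1.61 by 213836_s_at. WIPI1 was high on BR-DIM 48 h, where luminal and epithelial genes were low, and on isoflavone 72 h, where the epithelial sum was above the control. On the arrays that did not stand apart, its log2 ratios were 0.81 (BR-DIM 6 h) and 1.32 (isoflavone 72 h), both against the same control array. What the difference between arrays contributes to the WIPI1 values was not tested. With the floor set at the 75th percentile of all signals the control was raised to it and the ratios at 48 h and 72 h became lower bounds of 0.74 and 0.50, which no longer made the call.

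The genes whose 4 ratios lay nearest to those of WIPI1, by Euclidean distance over the log2 ratios among 7304 genes with signals above 4 times the floor on all arrays, were EIF4EBP1 (distance 0.21), PTPRM (0.30) and LOC105379362 (0.31). EIF4EBP1 encodes a repressor of cap-dependent translation that mTOR phosphorylates. Its signals were 3365.5 in the control, 6125.7 and 11431.8 after BR-DIM, and 5250.7 and 8749.7 after isoflavone, with log2 ratios of 0.86, 1.76, 0.64 and 1.38. PTPRM, a receptor tyrosine phosphatase, had log2 ratios of 1.01, 1.42, 0.71 and 1.17. With 4 ratios that share 1 control, such likeness is a description of these arrays. The member nearest to WIPI1 was GABARAPL1, at a distance of 1.52.

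The 3 members of the conjugation system showed no common direction. ATG5, the acceptor to which ATG12 is joined, gave 2975.3 in the control, 2329.8 at 6 h and 2533.5 at 48 h of BR-DIM, and 3000.7 at 6 h and 2396.1 at 72 h of isoflavone. Its log2 ratios were -0.35, -0.23, 0.01 and -0.31. The dimmest of its 3 probe sets, 202512_s_at, went the other way with 535.8, 577.8, 744.2, 763.6 and 968.9, up to a log2 ratio of 0.85, so the probe sets of ATG5 shared a sign on 1 of 4 treated arrays. ATG12, the ubiquitin-like modifier itself, gave 1561.2, 1406.7, 2197.6, 1692.4 and 1549.0, with BR-DIM 48 h as the high array (log2 ratio 0.49). A dimmer ATG12 probe set, 213930_at, was lowest in the control at 238.0 and highest on BR-DIM 6 h at 481, a log2 ratio of 1.01.

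ATG16L1, which places the conjugate on the membrane, gave 187.9 in the control, 162.6 at 6 h and 202.7 at 48 h of BR-DIM, and 302.1 at 6 h and 59.4 at 72 h of isoflavone. Isoflavone 6 h was the high array and isoflavone 72 h lay under the floor, with a bound of -0.95 for its log2 ratio. Its other probe set gave 173.8, 80.3, 29.5, 220.9 and 163.4, so that on isoflavone 72 h only one of the probe sets was low, and on both BR-DIM arrays only the other was. Both gave their highest signal on isoflavone 6 h, at log2 ratios of 0.69 and 0.35.

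MAP1LC3B, the source of the LC3B protein that coats autophagosomes, was the steadiest member. Its probe sets gave 1742.8, 1726.0, 1535.4, 1924.9 and 1902.2, and 1512.9, 1771.4, 1255.1, 1671.7 and 1422.6, with the control first and the isoflavone arrays last. No array stood out, and the log2 ratios lay between -0.18 and 0.14 by the first and between -0.27 and 0.23 by the second. Both were lowest on BR-DIM 48 h.

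GABARAPL1, a second ATG8 family gene, behaved differently from MAP1LC3B. Its brightest probe set, 208869_s_at, gave 431.1 in the control, 473.2 at 6 h and 707.0 at 48 h of BR-DIM, and 466.0 at 6 h and 566.9 at 72 h of isoflavone. The second, 208868_s_at, gave 207.9, 356.1, 517.9, 220.3 and 411.1. On both, as for WIPI1, the control was lowest, the late arrays were above the early ones and BR-DIM 48 h was highest. The log2 ratios were 0.13, 0.71, 0.11 and 0.40 by 208869_s_at and 0.78, 1.32, 0.08 and 0.98 by 208868_s_at, of which only the BR-DIM 48 h ratio of the latter passed 2-fold. That array was one of those low in luminal and epithelial genes. One further probe set, 211458_s_at, is mapped both to GABARAPL1 and to its near-identical copy GABARAPL3 and was not counted among the members.

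Promoter windows of some members can be set beside these values. The 250 bases before the annotated start are shown for WIPI1 and GABARAPL1, whose probe sets were above the control on every treated array, for SQSTM1, which rose on isoflavone 72 h by its brightest probe set (the last of its 3 annotated starts), and for MAP1LC3B, the steady member. They are RefSeq sequences of build GRCh38.p14, written 5′ to 3′ on the strand of the gene, at chr17:68457497-68457746 (minus strand), chr12:10212627-10212876 (plus strand), chr5:179820655-179820904 (plus strand) and chr16:87392086-87392335 (plus strand). Capitals mark matches to the motifs searched.
WIPI1: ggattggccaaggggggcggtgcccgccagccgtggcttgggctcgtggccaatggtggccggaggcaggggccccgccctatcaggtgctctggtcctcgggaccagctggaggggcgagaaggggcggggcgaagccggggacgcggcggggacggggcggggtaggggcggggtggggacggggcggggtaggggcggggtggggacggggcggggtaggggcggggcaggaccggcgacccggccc
GABARAPL1: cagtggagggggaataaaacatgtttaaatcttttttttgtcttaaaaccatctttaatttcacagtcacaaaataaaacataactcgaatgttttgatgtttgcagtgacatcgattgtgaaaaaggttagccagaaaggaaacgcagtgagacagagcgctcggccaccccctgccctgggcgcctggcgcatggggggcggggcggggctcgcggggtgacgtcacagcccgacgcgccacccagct
SQSTM1: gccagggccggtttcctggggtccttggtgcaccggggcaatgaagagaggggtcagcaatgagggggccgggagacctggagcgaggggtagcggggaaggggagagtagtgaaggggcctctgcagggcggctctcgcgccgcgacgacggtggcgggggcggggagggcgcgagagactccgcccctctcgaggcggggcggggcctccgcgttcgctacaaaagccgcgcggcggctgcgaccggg
MAP1LC3B: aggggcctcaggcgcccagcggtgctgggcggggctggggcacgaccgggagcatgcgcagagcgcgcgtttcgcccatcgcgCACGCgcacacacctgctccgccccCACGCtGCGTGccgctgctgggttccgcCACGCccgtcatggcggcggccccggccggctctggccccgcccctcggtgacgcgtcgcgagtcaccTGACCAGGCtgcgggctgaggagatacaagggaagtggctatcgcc

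Motifs were looked for on both strands in the 250-base windows of all 10 genes and of 35116 annotated starts in all. A member counted if any of its windows held a match, and ATG5, NBR1 and SQSTM1 have several windows. The shares count single windows, so the figures are not of the same unit. The CLEAR element core TCACGTGA, which TFEB is known to bind, was in 0 of 10 members and in 0.854% of all windows. The antioxidant response element core TGACNNNGC of NRF2 was in 1 member, MAP1LC3B, 46 bases before its start, and in 10.9% of all windows. The amino acid response element TGATGNAA of ATF4 was in 0 members and in 3.14% of all windows. The xenobiotic response element core GCGTG of the aryl hydrocarbon receptor was in 4 members (ATG12, MAP1LC3B, NBR1 and ULK1) and in 32.2% of all windows, with 4 matches in the MAP1LC3B window. The windows of WIPI1, GABARAPL1 and SQSTM1 held no match to the 4 motifs. A match describes letters and not binding, and the absence of one covers this window alone.

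SQSTM1 encodes p62, which links ubiquitinated cargo to the autophagosome and is itself degraded there. Its brightest probe set, 201471_s_at, gave 1927.2 in the control, 2101.5 at 6 h and 1775.7 at 48 h of BR-DIM, and 1529.5 at 6 h and 5591.5 at 72 h of isoflavone. A single array, isoflavone 72 h, was high. There the log2 ratio to the control was 1.54, above 98.9% of the measured genes, and that to isoflavone 6 h was 1.87, while the log2 ratios of the other arrays were 0.12, -0.12 and -0.33. Isoflavone 72 h was not one of the arrays low in luminal and epithelial sums, although its KLK3 signal of 1544.8 was below the control.

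The dimmer probe sets of SQSTM1 did not show this pattern. For 239004_at the signals were 154.1, 231.7, 346.0, 204.7 and 287.4, highest on BR-DIM 48 h with a log2 ratio of 1.17 and at 0.90 on isoflavone 72 h. For 213112_s_at they were 127.3, 242.2, 11.4, 138.7 and 203.7, so that BR-DIM 48 h was the lowest array. Another, 244804_at, stayed between 103.0 and 135.8, and the last was above the floor on BR-DIM 48 h only. The rise by isoflavone at 72 h past 2-fold thus rests on the brightest probe set.

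Nearest to SQSTM1 over the 4 ratios were FTH1P5 (distance 0.23), BNIP3L (0.40) and MYEF2 (0.47) among 7303 genes. FTH1P5 is a pseudogene of the ferritin heavy chain, whose near-identical copies can share a probe set, so its name is uncertain, and its signals were 9096.1 in the control and 28201.0 on isoflavone 72 h. BNIP3L encodes NIX, a receptor for the removal of mitochondria by autophagy. It gave 1251.4, 1485.8, 1134.7, 1102.2 and 2842.2, with isoflavone 72 h as the single high array (log2 ratio 1.18). Its second probe set had a log2 ratio of 0.47 there.

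NBR1, a cargo receptor related to p62 in its domains, gave 1856.8 in the control, 2245.6 at 6 h and 2281.1 at 48 h of BR-DIM, and 2379.1 at 6 h and 2403.6 at 72 h of isoflavone. All treated arrays were above the control by log2 ratios of 0.27 to 0.37. The second probe set gave 1665.5, 1193.7, 1568.6, 1424.8 and 1025.0, all treated arrays being below the control, down to a log2 ratio of -0.70. The direction for NBR1 was therefore not settled by these arrays.

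The values of NBR1 show how far probe sets of a gene can part. For the 8 members with at least 2 probe sets above the floor on all arrays there were 32 pairs of a gene and a comparison with the control, and in 16 the probe sets shared a sign. WIPI1 and GABARAPL1 had one sign in 4 of 4 comparisons, BECN1 in 3, ATG12 and MAP1LC3B in 2, ATG5 in 1 and NBR1 and SQSTM1 in 0. ATG5, ATG12 and SQSTM1 entered with 3 probe sets and the other genes with 2. A shared sign is harder to reach with 3, so these counts do not rank the genes. The same share was not taken over all genes, so 16 of 32 has no background beside it. A log2 ratio of 0 counted as no shared sign. This held for SQSTM1 on isoflavone 72 h, where 244804_at was at 0 and the others at 1.54 and 0.90. The median spread between the probe sets of a gene was 0.59 on the log2 scale and the largest was 1.54.

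**Figure D2:**
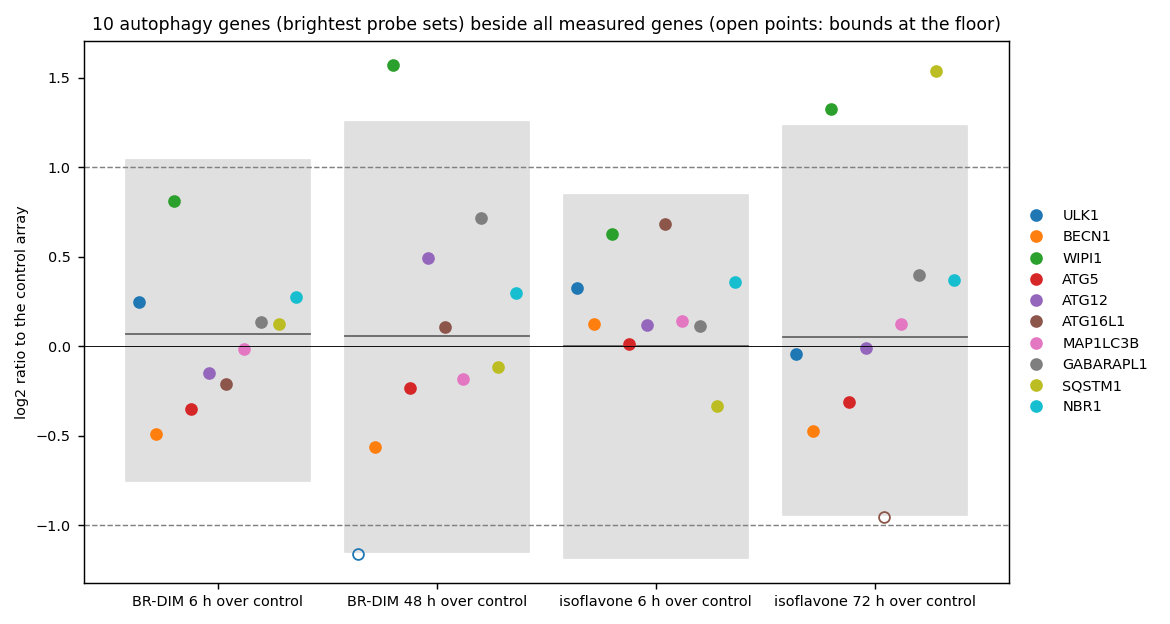
Log2 ratio of each member (brightest probe set, 1 point a gene) to the control on the 4 treated arrays, with the central 95% of all measured genes as a grey band, their median as a line and 2-fold as dashed lines. WIPI1 lies above the band at BR-DIM 48 h (1.57) and isoflavone 72 h (1.32), SQSTM1 above it at isoflavone 72 h (1.54), and the bounds of ULK1 (-1.16, BR-DIM 48 h) and ATG16L1 (-0.95, isoflavone 72 h) at its lower edge.

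For the 10 genes as a list, the counts were few. On BR-DIM 6 h, 0 of 10 were at least 2-fold higher and 0 lower, beside 2.86% and 0.806% of all measured genes, and the median log2 ratio was 0.06 beside 0.07 for all genes. On BR-DIM 48 h, 1 was higher (WIPI1) and 1 lower (ULK1), beside 5.33% and 3.87% of all genes, with medians of -0.0044 and 0.06. On isoflavone 6 h, 0 were higher and 0 lower, beside 1.18% and 3.82%. There 9 of the 10 genes lay above the control, all within 2-fold, with a median of 0.13 beside 0.0035 for all genes. By that median, about as many of all genes lay above the control as below it. Counted by probe set, 20 of 24 lay above and 4 below, with a median of 0.14 beside -0.01 for all measured probe sets. Among those below were the second probe sets of BECN1 (-0.10) and NBR1 (-0.23). Several of the 24 belong to the same gene, so they are not separate observations. ATG5, at 0.01, turned to -0.03 with quantile normalization. On isoflavone 72 h, 2 were higher (WIPI1 and SQSTM1) and 0 lower, beside 4.8% and 2.06%, with medians of 0.06 and 0.05. Counts of 0 to 2 among 10 genes do not set the list apart from these shares.

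Counted by probe set, 2 of 24 measured member probe sets were higher on BR-DIM 6 h (1 each of WIPI1 and ATG12) and 0 lower, beside 2.56% and 1.38% of all measured probe sets. On BR-DIM 48 h, 4 of 25 were higher (both of WIPI1, 1 each of GABARAPL1 and SQSTM1) and 1 lower (ULK1), beside 4.82% and 4.41%. On isoflavone 6 h, 0 of 24 were higher or lower, beside 1.18% and 3.52%. On isoflavone 72 h, 3 of 24 were higher (both of WIPI1 and 1 of SQSTM1) and 0 lower, beside 4.21% and 3.19%. Probe sets of a gene share their transcript and are not independent of each other.

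The agents were applied at the same nominal concentration for the same time only at 6 h, and there they can be compared without the control. For G2535 that concentration counts its genistein alone, so the total isoflavone was higher. Of the 10 members, 0 were at least 2-fold higher and 0 lower on BR-DIM 6 h than on isoflavone 6 h, beside 7.01% and 1.12% of all measured genes. The median log2 ratio was -0.12 beside 0.06 for all genes. SQSTM1 had the highest ratio (0.46) and ATG16L1 the lowest (-0.89), followed by BECN1 (-0.61). By their brightest probe sets WIPI1 was at 0.18 and GABARAPL1 at 0.02, and by their second probe sets BR-DIM was above isoflavone by 0.90 and 0.69, all within 2-fold. With 1 array each no interval can be given for these differences, and isoflavone 6 h was one of the arrays low in luminal and epithelial genes. The late arrays differ in time, 48 h for BR-DIM and 72 h for isoflavone, so their values stand side by side only: for SQSTM1 log2 ratios to the control of -0.12 and 1.54, for WIPI1 1.57 and 1.32, for GABARAPL1 0.71 and 0.40, and for ULK1 a bound of -1.16 and a value of -0.04.

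To see whether the rest of the pathway moved, a list of 71 further autophagy genes in 8 roles was read from the same arrays. A probe set was found for each, and a comparison measured 66 to 68 of them. On BR-DIM 6 h, 1 of 67 was at least 2-fold higher and 2 lower (1.49% and 2.99%, beside 2.86% and 0.806% of all genes), with a median log2 ratio of -0.02 beside 0.07. On BR-DIM 48 h, 2 of 67 were higher and 4 lower (2.99% and 5.97%, beside 5.33% and 3.87%), with medians of -0.10 and 0.06. On isoflavone 6 h, 0 of 66 were higher and 2 lower (3.03% lower, beside 1.18% and 3.82%), with medians of 0.02 and 0.0035. On isoflavone 72 h, 5 of 68 were higher and 1 lower (7.35% and 1.47%, beside 4.8% and 2.06%), with medians of 0.07 and 0.05. Most of the listed genes were not called on any array, and with so few calls the shares do not set the list apart.

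**Figure D3:**
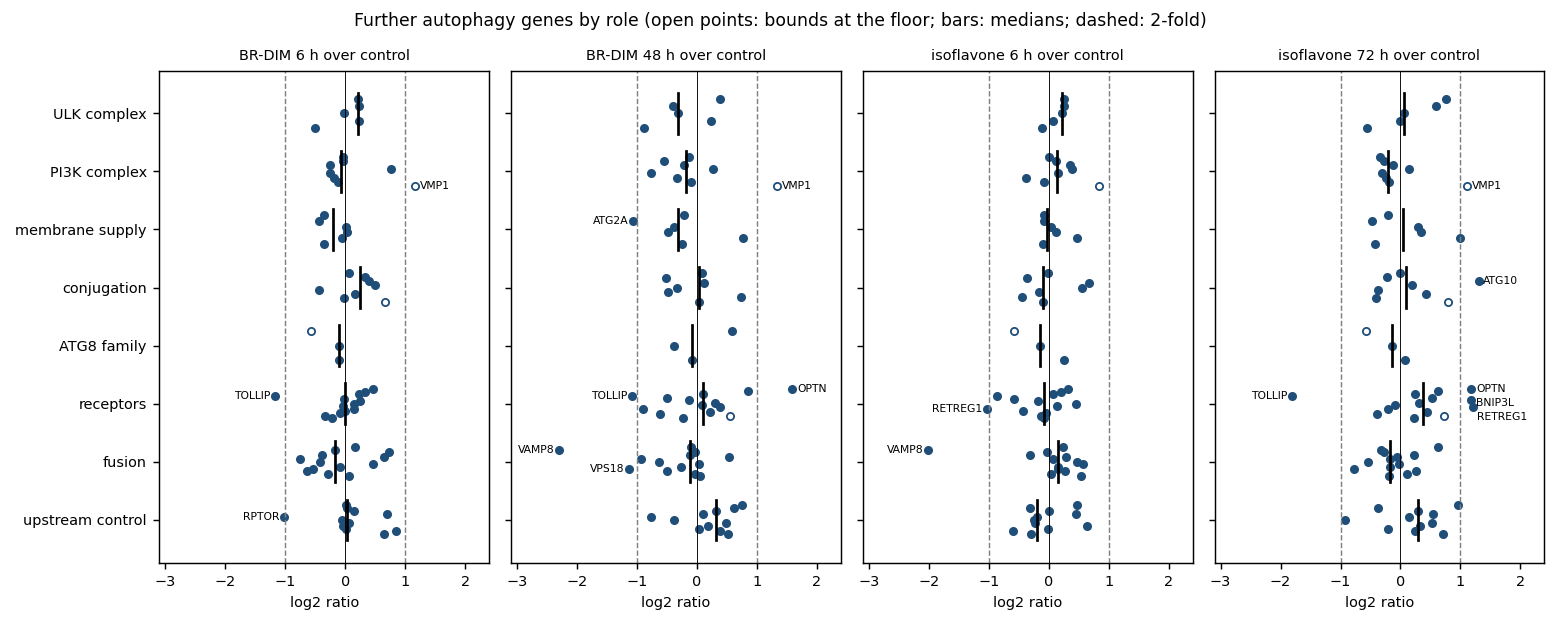
Log2 ratio to the control of 71 further autophagy genes in rows by role, 1 panel for each treated array, with points for genes, open points for bounds at the floor, bars for the median of a role and dashed lines at 2-fold. Nearly all points lie between the dashed lines, with OPTN (1.59) and VAMP8 (-2.29) farthest out on BR-DIM 48 h and TOLLIP (-1.81) on isoflavone 72 h.

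Of 14 measured cargo receptors, 3 rose on isoflavone 72 h, OPTN, BNIP3L and RETREG1, and 1 fell, beside 4.8% and 2.06% of all genes, in a role singled out after the counts of the 8 roles were seen. OPTN encodes optineurin, a receptor for ubiquitinated cargo. It gave 447.0 in the control, 615.3 and 1347.7 after BR-DIM, and 555.3 and 1012.9 after isoflavone, so the late arrays were high with both agents. Its log2 ratios were 0.46, 1.59, 0.31 and 1.18, and the second probe set gave 0.87, 1.51, -0.10 and 2.41. RETREG1, the receptor FAM134B for the endoplasmic reticulum, gave 429.9, 477.3, 560.1, 210.5 and 990.1, low on isoflavone 6 h (-1.03) and high on isoflavone 72 h (1.20). Its second probe set had log2 ratios of -0.42 and 1.25 there, so the fall rests on the brightest one. TOLLIP, an adaptor in sorting of ubiquitinated proteins, fell on 3 arrays by its brightest probe set.

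TOLLIP gave 567.9 in the control, then 253.1, 268.1, 313.5 and 161.7, with log2 ratios of -1.17, -1.08, -0.86 and -1.81. All treated arrays were below the control. Its second probe set passed 2-fold on BR-DIM 48 h alone, with log2 ratios of -0.22, -1.30, -0.68 and -0.29. The third, above the floor on every array, stayed between -0.30 and 0.05.

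In the other roles single genes passed 2-fold. VMP1, a membrane protein that acts early in autophagosome formation, was under the floor in the control (80.5) and above it on the treated arrays at 217.9, 245.9, 174.4 and 210.6, with bounds of 1.17, 1.34, 0.84 and 1.12. ATG10, the enzyme that hands ATG12 to ATG5, rose on isoflavone 72 h (196.5 in the control and 484.2, log2 ratio 1.30), and its second probe set had a log2 ratio of 0.50 there. VAMP8, a SNARE protein of fusion with the lysosome, gave 482.7 in the control, 430.5 and 98.4 after BR-DIM, and 120.2 and 386.7 after isoflavone. It fell on the same 2 arrays as the epithelial genes, by log2 ratios of -2.29 and -2.01, and was within 2-fold of the control on the others. ATG2A, a lipid transfer protein, and VPS18, a tethering subunit, fell on BR-DIM 48 h (-1.06 and -1.13). RPTOR, the raptor subunit of the mTOR complex, fell on BR-DIM 6 h (-1.02).

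In the ULK complex 0 genes passed 2-fold from the control, and the largest ratio was that of ATG101 on BR-DIM 48 h (-0.88). Among the other ATG8 genes 0 were called. MAP1LC3A gave 144.4, 53.9, 217.0, 79.9 and 86.3, with a log2 ratio of 0.59 on BR-DIM 48 h, and on the other arrays it was under the floor, so that -0.57 is only a bound there. TFEB, a transcription factor of lysosomal and autophagy genes, gave 104.5, 105.2, 175.3, 145.1 and 203.1, with a highest log2 ratio of 0.96 on isoflavone 72 h. WDR45, a relative of WIPI1, had a log2 ratio of 0.996 there, just short of 2-fold. Between BR-DIM 6 h and isoflavone 6 h, 3 of 66 genes were higher with BR-DIM (RETREG1 at 1.18, VAMP8 at 1.84 and DEPTOR at 1.45) and 0 lower, which is 4.55% beside 7.01% and 1.12% of all genes. DEPTOR is an inhibitor of mTOR.

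**Figure D4:**
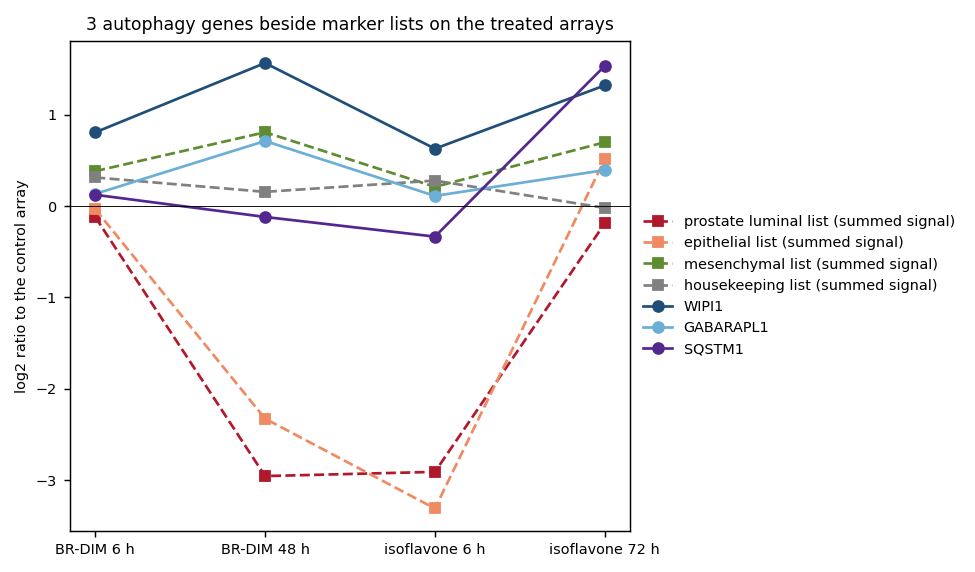
Log2 ratio to the control on the 4 treated arrays of WIPI1, GABARAPL1 and SQSTM1 (brightest probe sets, circles) and of the summed signals of 4 marker lists (squares), with lines that only join points. The luminal and epithelial sums have their low points at BR-DIM 48 h and at isoflavone 6 h, WIPI1 is above the control on all 4 arrays (0.81, 1.57, 0.63 and 1.32), and SQSTM1 is high on isoflavone 72 h alone (1.54).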

How the data were processed

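RNA of C4-2B cells was measured on 5 arrays, 1 per condition, grouped by the labels. The authors made the deposited intensity values with MAS5 (per the submitters' processing notes), as 1 linear signal per probe set. Neither a version nor the target of the scaling is given in the sources used here, and detection calls were not used. The arrays had been scaled, with trimmed means of 498.1 to 498.4 (2% cut at each end), and were used as deposited. Their median signals were 89.3 to 109.1, and 48.4% to 52.6% of probe sets lay above the floor of 97.1. The number of arrays limits the precision.

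Of 54613 probe sets, 41091 carry 1 symbol in the gene table, 1801 several and 11721 are not named in it; only the first were used. The probe set of highest mean over the arrays stood for a gene. A comparison measured a gene if either array lay above the floor, and counted it from 2-fold on. Named were all members, each gene of the wider list past 2-fold in any of 5 comparisons with the largest change of each role, and the 3 nearest genes of each member whose signals were all above the floor and ranged over at least 2-fold. Outside this rule, TFEB and some other genes just short of 2-fold were named too. The members, the wider list, the markers and the motifs were chosen with earlier results of these data known. Promoter sequences are those of RefSeq.

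The alternatives were quantile normalization, leaving out the floor, raising it to the 75th percentile (471.7), adding it as a pseudocount, averaging the probe sets of a gene, those ending in _s_at or _x_at left out, and a rule of 1.5-fold. The ratios and calls were run on simulated data in which large changes were set in bright genes only. That run does not cover members of lower signal, such as WIPI1 and ULK1. Python 3.11.15, numpy 2.4.6, pandas 2.3.3, scipy 1.17.1 and matplotlib 3.10.9 were used.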

Additional observations from a re-analysis of the deposited data

Results flagged for a closer look

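The probe set 211458_s_at, which is mapped to both GABARAPL3 and GABARAPL1 and entered no comparison, was above the control on all 4 treated arrays. Its signals were 863.9 in the control, 1353.6 at 6 h and 1715.2 at 48 h of BR-DIM, and 909.0 at 6 h and 2065.5 at 72 h of isoflavone. The log2 ratios were 0.65, 0.99, 0.07 and 1.26, the last past 2-fold. Which of the near-identical genes gave the signal cannot be told from the array.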

How the results depend on the processing

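Of 70 recomputed member counts, 55 were unchanged, 10 were larger and 5 smaller, and of 261 recomputed member ratios 252 kept their side of 2-fold. The sign changed in 13 of the 261, 6 with probe sets averaged, 5 without _s_at and _x_at probe sets and 2 with quantile normalization, among them NBR1 on BR-DIM 48 h (0.30 to -0.52) and ATG16L1 on the same array (0.11 to -0.64). Of these, 0 were past 2-fold as reported. The count of members higher on BR-DIM 6 h went from 0 to 1 (WIPI1) with probe sets averaged and at 1.5-fold. On BR-DIM 48 h the higher count of 1 became 0 with the floor at the 75th percentile (WIPI1 at a bound of 0.74), 2 without _s_at and _x_at probe sets (SQSTM1 joined, by 239004_at) and 2 at 1.5-fold (GABARAPL1 joined). The lower count of 1 there (ULK1) became 0 with the floor at the 75th percentile, under which ULK1 was not measured, and 0 with the floor as a pseudocount (-0.79). On isoflavone 6 h the higher count went from 0 to 2 at 1.5-fold (WIPI1 and ATG16L1). On isoflavone 72 h the higher count of 2 became 1 with the floor at the 75th percentile (WIPI1 at a bound of 0.50) and 1 without _s_at and _x_at probe sets (SQSTM1 at 0.90), and the lower count of 0 became 1 (ATG16L1) with no floor and at 1.5-fold. Between the agents at 6 h the lower count of 0 became 1 with quantile normalization, 1 with probe sets averaged (ATG16L1 at -1.12 and -1.11) and 2 at 1.5-fold (BECN1 joined). Without _s_at and _x_at probe sets 5 members were measured. For the wider list the median on isoflavone 72 h went from 0.07 to 0.30 without _s_at and _x_at probe sets. Over the settings at 2-fold its counts against the control were 0 to 1 higher and 0 to 3 lower at BR-DIM 6 h, 1 to 3 and 0 to 4 at 48 h, 0 to 1 and 0 to 2 at isoflavone 6 h, and 3 to 7 and 0 to 1 at 72 h, and between the agents at 6 h 0 to 4 and 0 to 2. At 1.5-fold they were 8 and 4, 8 and 11, 3 and 4, 14 and 3, and 8 and 7 in this order. No paired analysis was possible because each condition has 1 array, and for the same reason no array could be left out of a group.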
